A study of Mus musculus with 110 samples.

Results

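Assembly of the immunoglobulin heavy chain gene (Igh) in progenitor B cells begins with a joint between a D and a JH segment, after which a VH segment is joined to the DJ product. RAG, the recombinase, binds at the JH end and meets D and VH segments as chromatin is drawn past it by cohesin, and the DNA-binding protein CTCF can halt that movement. IGCR1, a control region between the D array and the VH segments, holds CTCF sites and is known for keeping RAG within the D array, and many D-proximal VH segments have a CTCF site close to their recombination signal. Removing CTCF and removing IGCR1 both open the VH region, and the comparison here asks whether they open the same part of it.

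The compared libraries were 16 of the 110 of the series, of which 98 were full junction libraries, and they were chosen by their titles. Recombination was read by LAM-HTGTS, a linear-amplification method in which each read joins a bait at Ighj4 (JH4; mm9 chromosome 12, 114666725 to 114666778, minus strand) to the prey segment it recombined with. The CTCF group came from a mouse pro-B line transformed by v-Abl, RAG2-deficient and with an Eμ-Bcl2 transgene, whose CTCF carries a degron tag. It was given RAG2 by nucleofection, the auxin IAA at 500 µM for 6 h, and then the Abl inhibitor STI-571 at 3 µM together with IAA for 4 days (6 replicates). The IGCR1 group was a line of the same kind with IGCR1 deleted. It carries a degron tag on Rad21, a cohesin subunit, but received no IAA, so cohesin was not depleted, and it was otherwise given RAG2 and STI-571 alike (4 replicates). IAA leads to degradation of the tagged protein. The labels do not say whether replicates came from separate clones or cultures, so p-values measure the spread between these samples, which may be technical. The lines compared thus differ in the tag, in IAA and in sequencing run as well as in CTCF and IGCR1.

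Junctions come in separate a and b libraries, and the labels do not say what a and b stand for. The 10 b libraries formed the primary set because only they exist for both groups here, and the 6 a libraries of the CTCF group served as a check. Deposited junctions per b library ran from 10997 to 17865 in the CTCF group and from 5329 to 15327 in the IGCR1-deleted line, of which 2938 to 4981 and 2703 to 7889 lay in the VH region. The treatment labels of CTCF replicate 5 (b and a) and of the a library of replicate 4 do not list IAA, and the titles were followed. CTCF replicate 1 stood apart from the other 5 replicates in how far its VH junctions reached, in both its b and its a library, and values without it are given below. The CTCF libraries were all in 1 sequencing run and the deleted line in 2 other runs, so run and group cannot be told apart. The junctions hold no measure of CTCF protein or of the IGCR1 deletion itself, so the labels could not be checked on them. Untreated CTCF degron cells (6 b libraries), untreated Rad21 degron cells with IGCR1 (3) and untreated parental cells (4) give the background. Untreated here means without IAA only, since these cells were also given STI-571 at 3 µM for 4 days.

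The segments on which the comparison turned are shown from mm9, on the coding strand, with the last 12 bases of the VH segment, the recombination signal heptamer in capitals, and 78 bases past the coding end in all. A second run of capitals marks a match to CCNNNAGNNGGC, a core of the CTCF motif, searched on both strands of the 100 bases past each coding end, where no match overlaps a heptamer. The sequences are given because the Ighv5 segments, which were used very differently in the groups, are nearly alike here, while Ighv2-3, the most used VH of the CTCF group, differed from Ighv5-2 at 41 of the 90 bases. They lie on the minus strand at chr12:114816637-114816726, chr12:114826400-114826489, chr12:114835579-114835668, chr12:114849317-114849406, chr12:114863639-114863728, chr12:114940257-114940346 and chr12:116842073-116842162, in the order shown.
Ighv5-2: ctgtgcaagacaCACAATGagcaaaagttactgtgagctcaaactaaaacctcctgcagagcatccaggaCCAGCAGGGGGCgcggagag
Ighv2-2: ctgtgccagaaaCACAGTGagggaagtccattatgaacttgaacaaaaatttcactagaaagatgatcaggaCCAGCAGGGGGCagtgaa
Ighv5-4: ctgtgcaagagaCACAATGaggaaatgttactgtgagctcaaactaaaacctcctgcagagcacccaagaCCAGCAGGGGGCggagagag
Ighv2-3: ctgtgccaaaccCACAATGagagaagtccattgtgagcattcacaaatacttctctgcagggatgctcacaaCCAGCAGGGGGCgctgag
Ighv5-6: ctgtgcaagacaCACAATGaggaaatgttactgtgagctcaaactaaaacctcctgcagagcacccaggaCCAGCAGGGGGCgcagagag
Ighv5-12: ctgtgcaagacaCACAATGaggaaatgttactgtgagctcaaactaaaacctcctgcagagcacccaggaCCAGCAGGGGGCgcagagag
Ighv1-67: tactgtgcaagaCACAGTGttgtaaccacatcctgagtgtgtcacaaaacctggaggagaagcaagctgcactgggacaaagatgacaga

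Ighv5-6 and Ighv5-12 did not differ at any of the 90 bases shown, and Ighv5-2 differed from each at 4. The match began 58 bases past the coding end in the 4 Ighv5 segments and 60 bases past it in both Ighv2 segments, and Ighv1-67 had none. Of the 112 V segments annotated in mm9, 25 had a match in their 100 bases (22.3%). These were 7 of the 9 segments within 100 kb of Ighv5-2, 14 of 22 at 100 to 500 kb, and 4 of 81 beyond, against 0.651% of all 100-base tiles of the mm9 VH region. These distances are in mm9. Distances of junctions below are in the coordinates of the deposited files and start at another VH, so the classes do not hold the same segments.

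Both groups joined VH segments far more often than the untreated background cells, and the IGCR1-deleted line did so most. The share of all junctions that lay in the VH region (position 114829805 to 117639092 of chromosome 12 in the coordinates of the deposited files) was 22.1% at lowest, 26.8% at the median and 29.4% at highest in the CTCF group. It was 53.0%, 51.5%, 50.7% and 47.5% in replicates 1 to 4 of the deleted line. The ranges did not overlap. The means were 25.96% ± 2.98 (SD, n = 6) and 50.7% ± 2.33 (SD, n = 4), a difference of −24.7 points (two-sided exact permutation p = 0.00476, the smallest this design can give). Untreated CTCF degron cells had 3.455% ± 1.202 (SD, n = 6), untreated Rad21 degron cells 1.83% ± 0.0643 (SD, n = 3) and parental cells 4.37% ± 0.870 (SD, n = 4). The D share was 71.5% ± 3.22 (SD, n = 6) with CTCF depletion and 46.7% ± 2.66 (SD, n = 4) with IGCR1 deleted. VH and D junctions make up nearly all junctions, so this mirrors the VH share and is not a separate result.

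**Figure D1:**
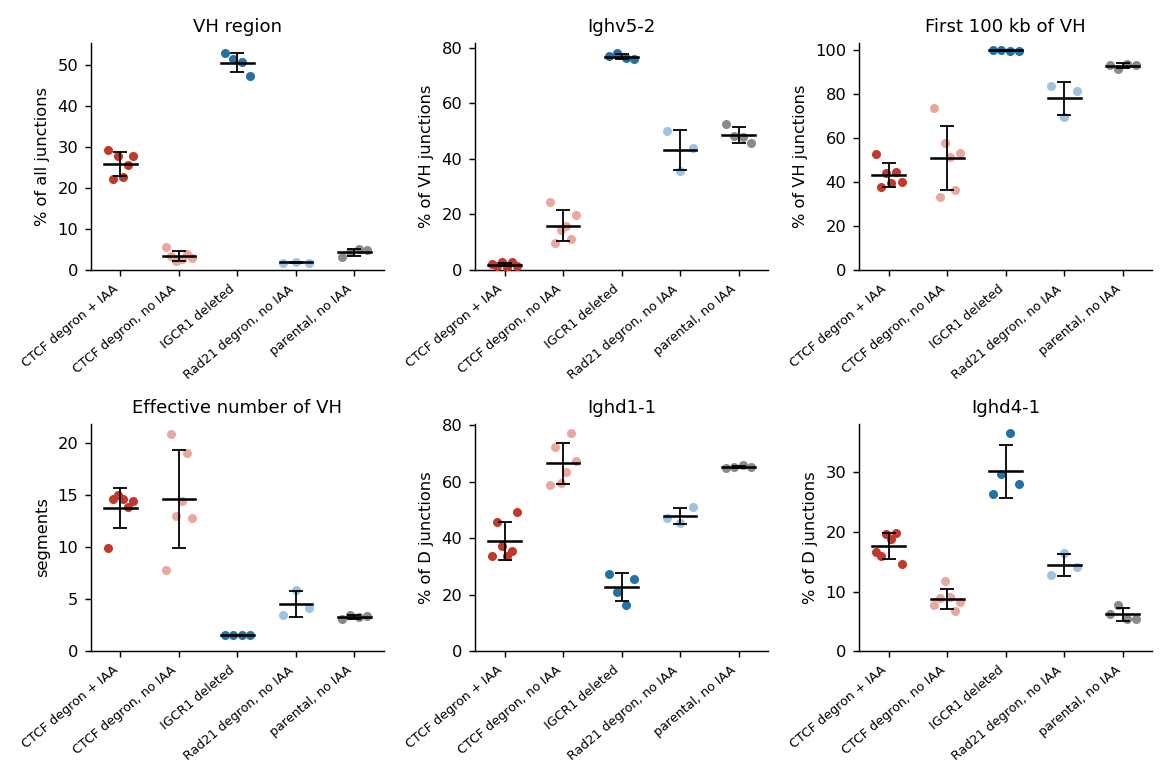
Share of junctions (percent) or effective number of VH segments in 5 groups of b libraries; each point is 1 library, the long bar the mean and the error bar 1 SD. The CTCF group (25.96% in the VH region) and the IGCR1-deleted line (50.7%) lie apart in all 6 panels, and untreated CTCF degron cells already have a low Ighv5-2 share and a high effective number.

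Where those VH junctions fell differed more than how many there were. Ighv5-2 (VH81X, position 114836377; mm9 114816715 to 114817201), the VH segment best known for dominating early repertoires, held 77.1%, 78.02%, 76.2% and 75.9% of VH junctions in the 4 replicates of the deleted line. With CTCF depletion it held 1.02% at lowest, 1.86% at the median and 2.73% at highest. The groups were far apart, at 76.8% ± 0.962 (SD, n = 4) against 1.96% ± 0.684 (SD, n = 6; exact permutation p = 0.00476). As a share of all junctions this was 38.9% ± 2.15 (SD, n = 4) in the deleted line and 0.517% ± 0.209 (SD, n = 6) with CTCF depletion. The second of these lay beside 0.580% ± 0.407 (SD, n = 6) in untreated CTCF degron cells, while untreated Rad21 degron cells had 0.787% ± 0.108 (SD, n = 3). Within VH junctions the background already differed between the lines, since Ighv5-2 held 15.9% ± 5.60 (SD, n = 6) in untreated CTCF degron cells, 43.2% ± 7.24 (SD, n = 3) in untreated Rad21 degron cells and 48.6% ± 2.81 (SD, n = 4) in parental cells.

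The reach along the locus followed the same split. Distances are counted from position 114830805, the VH nearest the D array among those that all 4 parental libraries used. The median VH junction lay 5.57 kb away in each of the 4 deleted replicates, that is, at Ighv5-2. With CTCF depletion it lay 52.6 kb away in replicate 1, 131 kb in replicates 3, 5 and 6, and 168 kb in replicates 2 and 4. The group mean was 130.1 kb ± 42.1 (SD, n = 6; exact permutation p = 0.00476), or 145.6 kb without replicate 1. The first 20 kb held 95.8% to 97.1% of VH junctions in the deleted line and 3.91% to 7.73% with CTCF depletion. The first 100 kb held 99.6% ± 0.153 (SD, n = 4) and 43.0% ± 5.50 (SD, n = 6; exact permutation p = 0.00476). The untreated CTCF degron line, at 50.8% ± 14.7 (SD, n = 6), overlapped the treated ones here, while untreated Rad21 degron cells had 77.9% ± 7.53 (SD, n = 3) and parental cells 92.6% ± 1.09 (SD, n = 4).

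**Figure D2:**
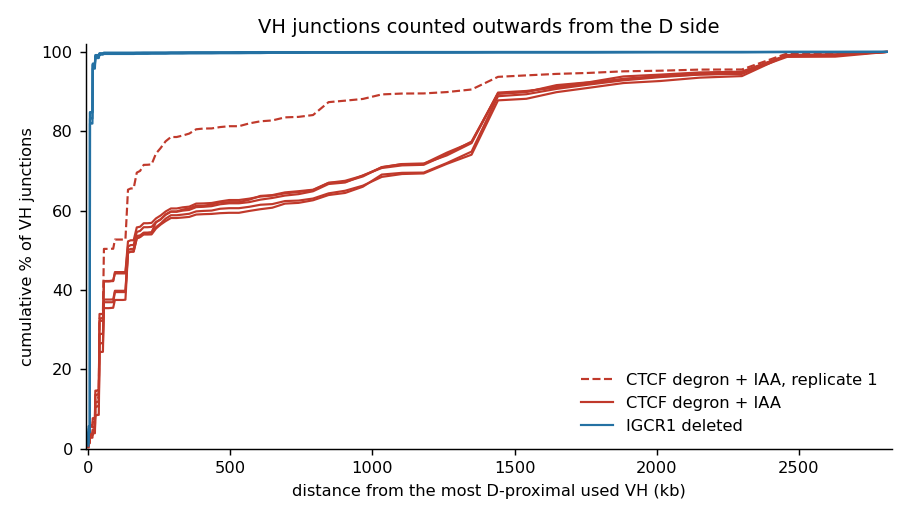
Cumulative percent of VH junctions (y axis) against distance in kb from the most D-proximal used VH (x axis), 1 line per b library. Lines of the IGCR1-deleted line reach 99.6% on average within 100 kb, while those of the CTCF group reach 43.0% on average; the dashed line is CTCF replicate 1.

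Beyond 100 kb the deleted line had few junctions in any replicate. At 100 to 500 kb the CTCF group had 21.6% ± 3.94 of its VH junctions (SD, n = 6) and the deleted line 0.186% ± 0.0726 (SD, n = 4). The shares were 9.30% ± 0.703 against 0.108% ± 0.0561 at 500 to 1200 kb, and 6.33% ± 0.893 against 0.0470% ± 0.0393 beyond 2000 kb (SD, n = 6 and 4). Between 1200 and 2000 kb the CTCF group had 19.7% ± 6.95 (SD, n = 6), with 5.60% in replicate 1 and 21.7% to 23.8% in the other 5, and the deleted line had 0.0472% ± 0.0348 (SD, n = 4). In each of these classes the groups did not overlap (exact permutation p = 0.00476, Benjamini-Hochberg 0.00714 over 27 secondary shares, of which 20 passed and 19 did not overlap). The a library of CTCF replicate 1 was also low, at 9.80% against 19.1% to 21.7% in the a libraries of replicates 2 to 6. It had the highest a share in the first 100 kb (49.75% against 39.6% to 46.1%) and the lowest effective number (10.8 against 13.25 to 14.6), while its median distance, 130.7 kb, lay within their 130.7 to 167.8 kb.

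The number of VH segments in use gave the same order. The effective number (the inverse of the sum of squared shares, which is 1 when a single segment takes all junctions) was 1.55, 1.53, 1.59 and 1.56 in the deleted replicates. In the CTCF group it was 9.87 at lowest, 14.5 at the median and 14.9 at highest. The means were 1.56 ± 0.0284 (SD, n = 4) and 13.7 ± 1.92 (SD, n = 6; exact permutation p = 0.00476), and the latter was 14.5 without replicate 1. When each library was reduced to 2000 VH junctions, 8.57 to 13.9 segments were seen in the deleted line and 86.9 to 107.7 in the CTCF group. The untreated CTCF degron line had an effective number of 14.6 ± 4.71 (SD, n = 6), so the even use was also present without IAA and at a lower VH share. Untreated Rad21 degron cells had 4.48 ± 1.25 (SD, n = 3), above the deleted line.

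Of the 150 VH segments defined over the series, 145 had at least 1 junction in the CTCF group and 38 in the deleted line. A mean of at least 10 junctions per library, taken over both groups together, was needed for the limma test, and 33 VH segments had it. Of these 33, 28 reached that mean in the CTCF group alone, so their count is not support for a difference, and 5 reached it in both groups. With VH junctions as the scale, all 33 were called (100%), 30 higher with CTCF depletion (90.9%) and 3 lower (9.09%), and the replicate shares of all 33 did not overlap. With all junctions as the scale, 40 of 46 VH and D segments were called (87%), 36 higher (78.3%) and 4 lower (8.7%). The 117 untested VH segments held 2791 junctions in the CTCF group and 36 in the deleted line. Without CTCF replicate 1, 37 of 37 were called, 34 higher and 3 lower. With the scale set to VH junctions other than at Ighv5-2, an alternative added after the data were seen, 32 of 32 were called, 29 higher and 3 lower, and 31 kept their direction.

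**Figure D3:**
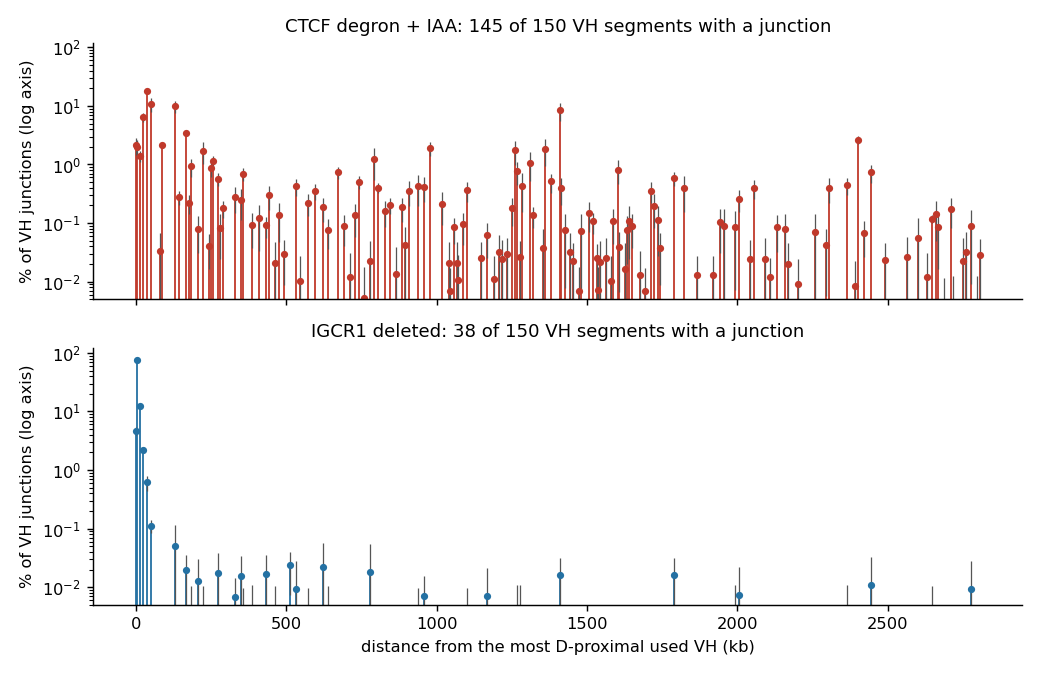
Mean percent of VH junctions per VH segment (log axis) against distance in kb from the most D-proximal used VH, for the CTCF group (upper) and the IGCR1-deleted line (lower); bars are 1 SD over replicates, and means under 0.005% fall below the axis. In the lower panel shares drop with distance from 76.8% at Ighv5-2 to 0.112% at Ighv5-6, whereas in the upper panel segments along the whole region are used.

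The 5 VH segments measured in both groups lie next to each other. The 3 nearest the D array held lower shares with CTCF depletion and the other two higher shares. The first, at position 114830805 (88.9% identical to its best mm9 match, Ighv5-9, and so not given that name), held 5.57%, 4.97%, 4.03% and 4.27% of VH junctions in the deleted line. In the CTCF group it held 1.36% at lowest, 1.88% at the median and 3.21% at highest. The groups did not overlap and the share was lower with CTCF depletion (log2 −1.17, SE 0.22, limma adjusted p = 6.66e-05). Measured as the effect of each condition against untreated CTCF degron or Rad21 degron cells, however, this segment did not pass (difference of effects −0.52, SE 0.54, limma adjusted p = 0.339). Ighv5-2, the next one at 5.6 kb, was lower with CTCF depletion by log2 −5.31 (SE 0.21, limma adjusted p = 4.36e-13), a 39.3-fold higher share in the deleted line.

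The third segment, at 114846142 (closest to Ighv2-2, 99.5% identity), held 11.5%, 11.9%, 13.7% and 13.2% of VH junctions in the deleted line. It held 1.12% at lowest, 1.28% at the median and 1.86% at highest with CTCF depletion, 8.92-fold less on the means. These ranges lay well apart (log2 −3.15, SE 0.20, limma adjusted p = 8.81e-11). Past it, the CTCF group was higher. Ighv5-4 (position 114855361, 97.0% identity) held 2.12%, 2.09%, 2.55% and 2.07% in the deleted line against 4.53% at lowest, 6.82% at the median and 7.39% at highest with CTCF depletion (log2 1.58, SE 0.19, limma adjusted p = 2.13e-07). That direction depends on the scale: with Ighv5-2 left out of the total it was −0.52. On the scale of all junctions Ighv5-4 had 1.68% ± 0.427 (SD, n = 6) and 1.12% ± 0.131 (SD, n = 4), log2 0.58.

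Ighv2-3, at 38.3 kb, was the most used VH of the CTCF group. It held 15.8% of VH junctions at lowest, 17.3% at the median and 20.9% at highest there, and 0.545%, 0.469%, 0.888% and 0.568% in the deleted line. All 6 CTCF libraries were above all 4 deleted ones (log2 4.91, SE 0.27, limma adjusted p = 1.65e-11). Ighv5-6, at 52.6 kb, followed with 10.9% ± 2.96 (SD, n = 6) against 0.112% ± 0.0287 (SD, n = 4), the latter from 28 junctions. Its highest CTCF value, 16.2%, was that of replicate 1.

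Ighv5-12, at 130.7 kb, has in mm9 the same 90 bases at its end as Ighv5-6 and differs from Ighv5-2 at 4. It held 9.77% ± 2.19 of VH junctions with CTCF depletion (SD, n = 6). In the deleted line it had 5, 0, 0 and 9 junctions in the 4 libraries, a mean of 0.0502%. In mm9 the 150 coding bases nearest the joint differed at 18 positions between Ighv5-2 and Ighv5-12. They differed at 17 between Ighv5-2 and Ighv5-6 and at 11 between Ighv5-6 and Ighv5-12. The aligned prey had a median of 127 bases and a lowest decile of 66 at Ighv5-2 in the deleted line, and 133 and 79 at Ighv5-12 in the CTCF group. Whether reads were given to the wrong one of these segments was not tested. As listed, Ighv5-12 was used more than Ighv5-2 with CTCF depletion and far less with IGCR1 deleted.

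Further out, single segments stood high in the CTCF group. The VH at 116240676 (closest to Ighv1-74, 83.4% identity), 1409.9 kb out, held 8.91% to 10.2% of VH junctions in replicates 2 to 6 and 2.72% in replicate 1. It had 1, 0, 1 and 1 junctions in the deleted libraries, a 511-fold ratio of mean shares with a 95% exact interval of 240 to 3416 that covers counting error only. The untreated CTCF degron line already had 4.73% ± 2.25 (SD, n = 6) there, and untreated Rad21 degron cells 1.54% ± 1.55 (SD, n = 3). The VH at 114998635 (closest to Ighv5-6, 97.5%), 167.8 kb out, held 3.40% ± 0.296 (SD, n = 6) against 4 junctions in all in the deleted line.

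Some of the used segments had no junction at all in the deleted line. Ighv1-67, 2401.6 kb out, held 2.67% ± 0.400 of VH junctions in the CTCF group (SD, n = 6) and 0 of the deleted line's, and was at least 219-fold higher when 3 junctions over the deleted group are taken as the floor. On the same basis the VH at 114919648 (closest to Ighv5-9, 97.5%; 2.16% ± 0.260) was at least 178-fold higher, Ighv14-1 (1.89% ± 0.510) at least 155-fold, and the VH at 116090723 (closest to Ighv8-5, 87.1%; 1.76% ± 0.770) at least 144-fold (SD, n = 6 each). In all, 14 of the 33 tested VH segments had 0 junctions in the deleted line. The fitted changes of such segments depend on the pseudocount. The median log2 change over the 33 was 6.26 as fitted and 5.92 with those 14 at their bound. Since 28 of the 33 passed the filter through the CTCF group alone, this median is not support for a difference.

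By family, Ighv5 genes held the largest share in both groups. They took 86.3% ± 1.34 of VH segment junctions in the deleted line (SD, n = 4) and 43.0% ± 5.94 in the CTCF group (SD, n = 6). The large Ighv1 (J558) family, which fills the distal part of the locus, held 19.8% ± 5.37 with CTCF depletion (SD, n = 6) and 0.0618% ± 0.0505 with IGCR1 deleted (SD, n = 4), though it was 8.997% in CTCF replicate 1 and 20.7% to 22.9% in the others. Of its 67 segments, 63 had a junction in the CTCF group and 7 in the deleted line. Ighv14 held 3.58% ± 0.683 (SD, n = 6) and no junction in the deleted line, and Ighv8 3.85% ± 1.32 (SD, n = 6) and 0.0151% ± 0.0302 (SD, n = 4). Ighv2, at 23.1% ± 2.72 (SD, n = 6) and 13.6% ± 1.27 (SD, n = 4), differed least in ratio. Each of these 5 family shares differed without overlap (exact permutation p = 0.00476, Benjamini-Hochberg 0.00714).

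Each group was also set against untreated background cells, since the lines differ without IAA. For the CTCF group these were the same line without IAA, in the same sequencing run. The IGCR1-deleted line received no IAA itself and was set against Rad21 degron cells with IGCR1, in other runs. Line and run were therefore not removed from the IGCR1 effect. The limma contrast of the CTCF effect minus the IGCR1 effect, on the scale of VH junctions, called 23 of 24 tested VH segments (95.8%), 21 higher for CTCF depletion (87.5%) and 2 lower (8.33%). The lower ones were Ighv5-2 (difference of effects log2 −3.79, SE 0.37, limma adjusted p = 5.89e-09) and the VH at 114846142 (−2.50, SE 0.36). Among the higher ones were Ighv5-4 (1.70, SE 0.48), Ighv2-3 (4.22, SE 0.44), Ighv5-6 (6.24, SE 0.66) and Ighv5-12 (6.29, SE 0.83). In the direct comparison Ighv5-4 changed direction when Ighv5-2 was left out of the total. Its value here is on the scale that includes Ighv5-2. Untreated Rad21 degron cells held 999 junctions at VH segments over 3 libraries, so the contrast rests on few junctions for single segments. Segments could pass the mean of at least 10 junctions, taken over all libraries in the contrast, through the CTCF degron libraries alone. The count of 23 is therefore not support for a difference.

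Within the D array the CTCF group used Ighd1-1 more and Ighd4-1 less than the IGCR1-deleted line. Ighd1-1 was lower and Ighd4-1 higher in the CTCF group than in untreated CTCF degron cells. The same held for the deleted line against untreated Rad21 degron cells with IGCR1. Ighd4-1 (DQ52) is the D nearest JH and Ighd1-1 (DFL16.1) the most upstream D of the main array. They are shown with the coding bases in capitals between both flanking heptamers, at chr12:114668732-114668756 and chr12:114720374-114720410 of mm9, minus strand, because their lengths bear on how well each can be recognised inside VH junctions.
Ighd4-1: cacagtgCTAACTGGGACcacggtg
Ighd1-1: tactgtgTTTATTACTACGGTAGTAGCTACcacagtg

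Ighd1-1 held 27.2%, 21.0%, 16.3% and 25.7% of D junctions in the deleted line, and 33.6% at lowest, 36.3% at the median and 49.4% at highest in the CTCF group. The groups did not overlap, at 22.5% ± 4.95 (SD, n = 4) and 39.2% ± 6.73 (SD, n = 6; exact permutation p = 0.00476). Untreated CTCF degron cells had 66.5% ± 7.35 (SD, n = 6) and untreated Rad21 degron cells 47.8% ± 2.91 (SD, n = 3). Ighd4-1 held 26.3%, 29.7%, 36.6% and 28.005% in the deleted line, and 14.6% at lowest, 17.7% at the median and 19.9% at highest in the CTCF group, again without overlap (30.2% ± 4.49, SD, n = 4, against 17.6% ± 2.17, SD, n = 6; exact permutation p = 0.00476). The untreated values were 8.76% ± 1.71 (SD, n = 6) and 14.5% ± 1.80 (SD, n = 3). The highest Ighd4-1 and the lowest Ighd1-1 share were both those of deleted replicate 3, the smallest library and the only one in its run.

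Limma, with D junctions as the scale, called 6 of 13 tested D segments (46.2%), 2 higher (15.4%) and 4 lower (30.8%) with CTCF depletion, and 5 of the 13 (38.5%) did not overlap between groups. The higher ones were Ighd1-1 (log2 0.81, SE 0.15, limma adjusted p = 3.26e-06) and its neighbour Ighd2-3 (0.39, SE 0.14, limma adjusted p = 0.0187). The lower ones were Ighd4-1 (−0.81, SE 0.15), the D at 114695747 (closest to Ighd2-5, 96.0%; −0.55, SE 0.15), Ighd2-8 (−0.37, SE 0.14, limma adjusted p = 0.0211) and Ighd3-1. The calls of Ighd2-8 and Ighd2-3 were lost when single replicates were left out, at −0.27 without CTCF replicate 2 and 0.29 without CTCF replicate 1. Median-of-ratios scaling, which shifted the median log2 change of all 13 D segments from −0.21 to 0.03, called 4 higher and 3 lower.

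The remaining 7 D segments, all between Ighd4-1 and Ighd1-1, did not pass. Ighd3-2, Ighd2-7 and the D segments at 114690286, 114705399 and 114710077 had log2 changes from −0.27 to −0.07, of which those of Ighd3-2, Ighd2-7 and the D at 114690286 turned to above 0 under median-of-ratios scaling. Ighd2-4 and the D at 114719358 had 0.22 and 0.18. The Ighd2 (DSP2) family as a whole held 39.8% ± 5.16 of D junctions (SD, n = 6) and 43.2% ± 1.28 (SD, n = 4), a difference within the spread of the CTCF group (exact permutation p = 0.257, Benjamini-Hochberg 0.316).

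**Figure D4:**
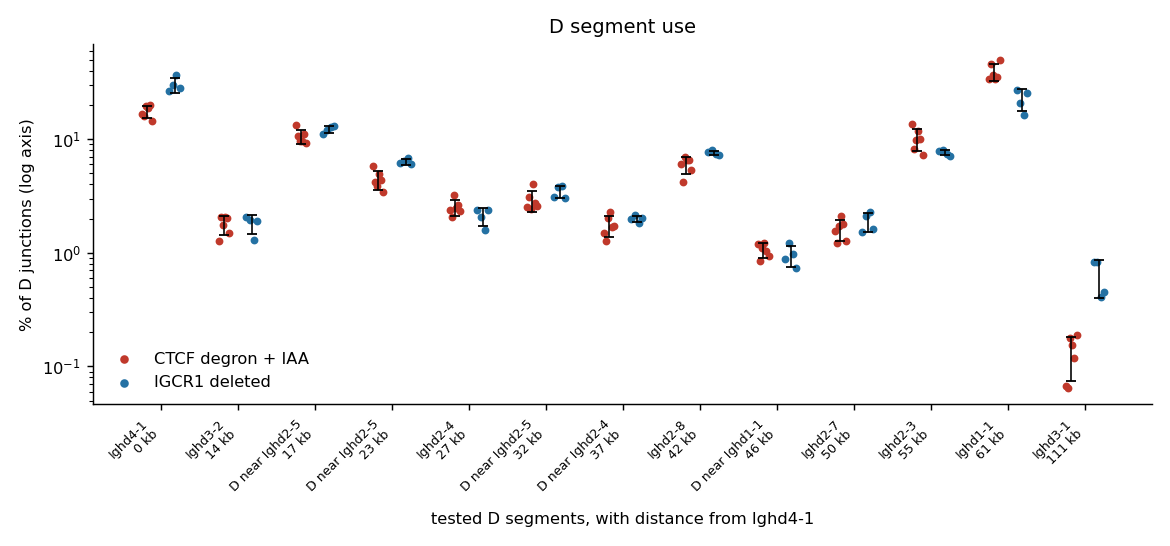
Percent of D junctions (log axis) at each of the 13 tested D segments, ordered by distance in kb from Ighd4-1; points are libraries and bars mean ± 1 SD. Ighd4-1 is lower (17.6% against 30.2%) and Ighd1-1 higher (39.2% against 22.5%) in the CTCF group, and Ighd3-1 is the segment with the largest ratio.

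Ighd3-1 (mm9 114763524 to 114763540) lies apart from the main array, between Ighd1-1 and the VH region. It held 0.823%, 0.836%, 0.406% and 0.453% of D junctions in the deleted line (151 junctions). In the CTCF group it held 0.0643% at lowest, 0.136% at the median and 0.190% at highest (87 junctions). The deleted line was 4.90-fold higher on the means and the groups did not overlap (log2 −2.37, SE 0.34, limma adjusted p = 2.94e-09). As a share of all junctions it was 0.291% ± 0.0976 (SD, n = 4) and 0.0917% ± 0.0383 (SD, n = 6), beside 0.00319% ± 0.00287 (SD, n = 6) in untreated CTCF degron cells and 0.00422% ± 0.00397 in untreated Rad21 degron cells (SD, n = 3).

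Other classes of junction were rare, and some differed. Junctions in minus orientation, which join without deletion of the DNA between, made up 2.57% ± 0.658 of VH junctions in the deleted line (SD, n = 4) and 0.748% ± 0.280 in the CTCF group (SD, n = 6; exact permutation p = 0.00476, Benjamini-Hochberg 0.00714). Untreated CTCF degron cells had 1.84% ± 0.511 (SD, n = 6) and untreated Rad21 degron cells 2.28% ± 1.02 (SD, n = 3). VH junctions not given to any segment made up 2.64% ± 0.644 in the deleted line (SD, n = 4) and 1.38% ± 0.388 in the CTCF group (SD, n = 6; exact permutation p = 0.00476, Benjamini-Hochberg 0.00714). Only plus-orientation junctions were given to segments, so this class includes all VH junctions in minus orientation and is not a separate result. Junctions in the interval from 5 kb beyond Ighd1-1 to the VH region made up 0.426% ± 0.154 of all junctions (SD, n = 4) and 0.178% ± 0.0721 (SD, n = 6), with ranges that overlapped (exact permutation p = 0.00952, Benjamini-Hochberg 0.0129). The interval includes Ighd3-1, which alone made up 0.291% and 0.0917% of all junctions, so this is not a result separate from that segment. Shares of all junctions in the JH cluster (0.926% ± 0.0941, SD, n = 6, against 0.933% ± 0.130, SD, n = 4; exact permutation p = 0.919) and outside chromosome 12 (0.885% ± 0.335, SD, n = 6, against 1.09% ± 0.465, SD, n = 4; exact permutation p = 0.467) did not pass.

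VH junctions also carry a record of the D segment joined before, in the bases between the VH end and JH4. The measure was added after the data were seen. A D family was called where those bases, at most 30, shared an exact run of at least 8 with a D segment of mm9. Ties between families were put with the remaining D families in a class of other D, which counted as called. Example sequences follow on the coding strand, from the VH end to JH4, with the run shared with the D in capitals. For each group, VH and D family shown, they had the most replicates and then reads among those with a run of at least 10 bases. The first and second are from Ighv5-2 in the deleted line (3 and 5 reads) and the others from Ighv2-3 in the CTCF group (2 and 3 reads). Each sequence with 3 reads came from 1 replicate.
VH to Ighd4, IGCR1 deleted: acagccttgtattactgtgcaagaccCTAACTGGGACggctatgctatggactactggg
VH to Ighd2, IGCR1 deleted: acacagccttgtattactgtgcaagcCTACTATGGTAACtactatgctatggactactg
VH to Ighd2, CTCF group: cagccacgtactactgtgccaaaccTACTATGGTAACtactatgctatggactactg
VH to Ighd1, CTCF group: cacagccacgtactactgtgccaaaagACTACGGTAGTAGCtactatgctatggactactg

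Ighd1 segments were in 4.12%, 4.04%, 3.51% and 4.83% of VH junctions of the deleted line. In the CTCF group they were in 20.7% at lowest, 24.1% at the median and 29.9% at highest, several times more and with no overlap (24.9% ± 3.71, SD, n = 6, against 4.12% ± 0.542, SD, n = 4; exact permutation p = 0.00476, Benjamini-Hochberg 0.00952 over 6 classes). Ighd4 went the other way, at 7.39%, 6.80%, 9.18% and 7.63% in the deleted line and 2.58% at lowest, 3.38% at the median and 4.34% at highest in the CTCF group (exact permutation p = 0.00476, Benjamini-Hochberg 0.00952). Its difference of −4.23 points was −1.13 when a run of at least 10 bases was asked for, against 20.7 and 18.6 for Ighd1. Ighd2 was in 36.3% ± 1.24 (SD, n = 4) and 31.4% ± 3.43 (SD, n = 6; exact permutation p = 0.0190, Benjamini-Hochberg 0.0229), a difference that did not pass at VH segments other than Ighv5-2 (−4.27 points, exact permutation p = 0.0524). No D was called in 49.6% ± 0.605 (SD, n = 4) and 38.5% ± 1.88 (SD, n = 6).

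**Figure D5:**
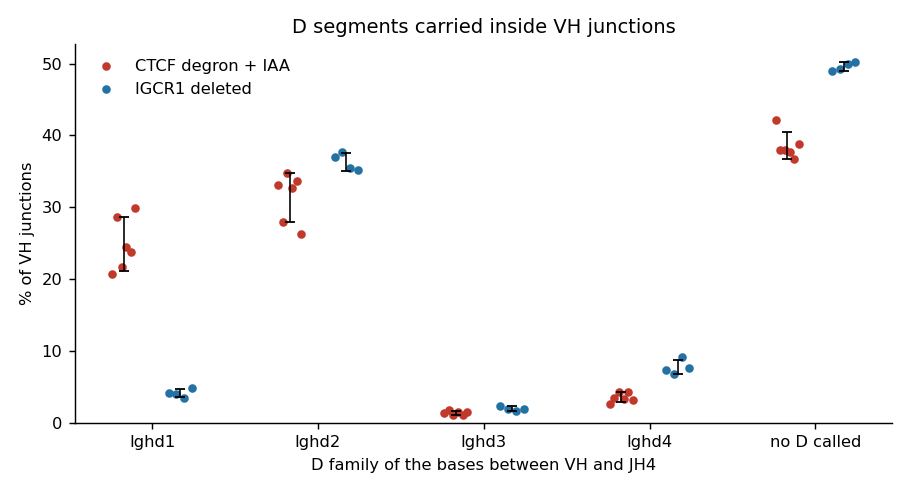
Percent of VH junctions (y axis) whose inserted bases matched each D family, by library, with mean ± 1 SD. Ighd1 is at 20.7% to 29.9% in the CTCF group and 3.51% to 4.83% in the IGCR1-deleted line, and Ighd4 is higher in the latter.

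The rate of D calls by chance was not tested. The difference in Ighd1 was also present within VH segments. At VH segments other than Ighv5-2, Ighd1 was in 24.99% ± 3.67 (SD, n = 6) and 4.07% ± 1.13 (SD, n = 4). At Ighv5-2 alone it was in 18.5% ± 9.21 of the CTCF group's 485 junctions (SD, n = 6) and in 4.14% ± 0.403 of the deleted line's 18948 (SD, n = 4). Untreated cells had 36.0% ± 10.6 in the CTCF degron line (SD, n = 6), 17.97% ± 1.14 in the Rad21 degron line (SD, n = 3) and 18.5% ± 2.73 in the parental line (SD, n = 4). Inserts had a median length of 14 to 16 bases in the CTCF libraries and 14 in the deleted ones.

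The D families in VH junctions can be set beside the D junctions of the same libraries. Among VH junctions with a called D, Ighd1 made up 40.4% ± 5.76 in the CTCF group (SD, n = 6), where the Ighd1 family held 40.2% ± 6.60 of D junctions. In the deleted line it made up 8.19% ± 1.12 (SD, n = 4), where the family held 23.5% ± 4.84 of D junctions. Untreated cells also had less Ighd1 among called inserts than among D junctions, at 30.8% against 65.98% in the parental line, 33.0% against 48.5% in the Rad21 degron line and 54.8% against 67.0% in the CTCF degron line. Ighd2 was above its share of D junctions in both, at 51.1% against 39.8% in the CTCF group and 72.1% against 43.2% in the deleted line. Ighd4 was below it in both, at 5.71% against 17.6% and 15.4% against 30.2%. Ighd4-1 has 11 coding bases, so few can be lost before an 8-base run is gone. Whether this lowers its share of called inserts was not tested.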

How the data were processed

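The deposited files list 1 junction read per line with its prey position, so tallies of lines, not a count column, were made here. Per the submitters' processing notes, Bowtie2 and mm9 were used. Per the labels, alignment was to a hybrid of AJ851868 and mm9, which was not used here, so segments were found as junction peaks over all 98 full libraries and named by blastn of the consensus of their prey reads against mm9 (at least 95% identity, and the best of the segments with that match; others are given by position). The a and b positions were shifted by 3 bases to match. A junction in plus orientation was given to a segment within 100 bp.

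Shares were compared by two-sided exact permutation tests over libraries (210 arrangements, Benjamini-Hochberg over 8 main and 27 secondary measures). Segments with a mean of at least 10 junctions over all libraries of a comparison were tested with limma-voom, scaled to all, VH or D junctions (R 4.3.3, limma 3.58.1, pseudocount 0.5, adjusted p threshold 0.05). Scripts were tested on simulated data. Where a segment had 0 junctions in a group, 3 junctions over the group set the bound. Reads have no molecular identifiers, so intervals and bounds cover counting error only.

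Named segments were Ighd4-1, Ighd1-1, the reference VH, Ighv5-2, the 6 VH segments with the highest mean share in each group, the 6 with the largest change in each direction among called ones without overlap, and all tested D segments. Members and lists were chosen with earlier results of these data known. The alternatives were another window or denominator, VH junctions thinned to the smallest library, a pseudocount of 2, identical junctions counted once, a libraries, a and b summed, other scaling, no filter, a replicate block and leaving out each replicate. The inserted-D measure and the scale without Ighv5-2 were added after the data were seen. The off-target lists were not used.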

Additional observations from a re-analysis of the deposited data

Results flagged for a closer look

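Of 127 groups of values looked at, 14 had 1 library far from the others. Many groups share junctions, and a lone value above 0 among zeros is always flagged, so no chance rate can be set beside this count. Of these, 8 were CTCF replicate 1. Its Ighv1 family share was 8.997% (20.7% to 22.9% in the other 5), its Ighv5 family share 54.86% (39.75% to 42.9%) and its Ighv8 family share 1.29% (3.73% to 4.97%). Its share at 1200 to 2000 kb was 5.60% (21.7% to 23.8%), its effective number of VH segments 9.869 (13.9 to 14.95) and its median distance 52.63 kb (130.7 to 167.8 kb). The VH at 114998635 held 3.991% there (3.23% to 3.38%) and the VH at 116240676 held 2.723% (8.91% to 10.2%).

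In the IGCR1-deleted line the Ighv3 family held 0.0756% in replicate 3, Ighv8 0.0604% in replicate 4 and Ighv9 0.02595% in replicate 2, each 0 in the other 3. Replicate 1 had 0.355% of junctions between D segments (0.0375% to 0.0913% in the others). Replicate 3 had 1.783% outside chromosome 12 (0.792% to 0.933%) and 2.553% of VH junctions at Ighv5-4 (2.07% to 2.12%). What set these libraries apart was not tested.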

How the results depend on the processing

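Each of the 8 main differences kept its direction under every alternative run, and those that left out 1 replicate ranged from −25.8 to −23.9 points (VH share), 23.9 to 26.0 (D share), −75.2 to −74.5 (Ighv5-2), −58.5 to −55.5 (first 100 kb), 117 to 140 kb (median distance), 11.9 to 12.9 (effective number), 14.5 to 18.2 (Ighd1-1) and −13.8 to −10.4 (Ighd4-1). With the replicate number as a replicate block (exact sign-flip permutation over 4 pairs, p = 0.125, the smallest possible) they were −25.1, 25.1, −75.0, −56.1, 124.2 kb, 11.95, 14.97 and −12.4. The deviations of same-numbered libraries correlated weakly (r 0.315, −0.0946, 0.201 and 0.0813), and 2 of 4 correlated best with their own number. With 4 pairs this cannot decide whether they share more than a number. The block gave 32 called segments on the scale of all junctions, 27 VH, 4 D and 18 VH effects. Leaving out 1 replicate gave 34 to 46, 29 to 40, 4 to 6 and 20 to 23. With no filter there were 104, 127, 10 and 133, and with a and b summed 52 VH segments. The JH share difference turned to 0.0105 with identical junctions counted once and 0.011 with the a libraries, and that of minus-orientation D junctions to −0.0017 with identical junctions counted once. Ighv5-4 turned to −0.52 with the scale without Ighv5-2. Median-of-ratios scaling turned Ighd3-2 to 0.11, the D at 114690286 to 0.029 and Ighd2-7 to 0.051. Over left-out replicates Ighd3-2 ran from −0.157 to 0.0035, above 0 without CTCF replicate 1. The cause of these changes was not tested. Ighd2-8 and Ighd2-3 were each lost without any of 4 single replicates, and the D at 114695747 under the block (limma adjusted p = 0.0813). The smallest library, with 2703 VH junctions, limits what can be seen of rare segments.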
